A study of Mus musculus with 25 samples.

Results

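The replication-dependent histone genes supply most of the histone protein that packages newly copied DNA. They were taken here as every row of the deposited table whose name begins Hist1 to Hist4 followed by a histone class, with a value above 0 in at least 3 columns. The rule found 64 of 20870 genes, and no row with such a name fell below it. The members comprise 6 linker histone H1 genes, 16 H2A, 19 H2B, 11 H3 and 12 H4 genes, of which 54 lie in the Hist1 cluster, 6 in Hist2, 3 in Hist3 and 1 in Hist4. A total of 57 members were above 0 in all 25 libraries, and those nearest the threshold were Hist2h2bb in 5 columns and Hist1h1t in 10. The rule itself read detection only, but the members were chosen with earlier results of these data known.

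Replication-dependent histone mRNAs are made mainly in S phase, and most end not in a poly(A) tail but in a conserved stem-loop bound by the stem-loop binding protein SLBP. H2A, H2B, H3 and H4 form the nucleosome core and H1 binds the linker DNA between nucleosomes. A few of these genes also give polyadenylated transcripts that persist in cells that no longer divide, and cardiac muscle cells largely leave the cell cycle after birth.

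The libraries were RNA-seq of mouse tissue cut by laser capture from heart sections, all from mice of a mixed strain background that carried Hcn4-GFP. The sinoatrial node (SAN, the pacemaker) and the right atrium (RA, working muscle) were each sampled at embryonic day 14.5 (E14.5) and at postnatal days 4 (P4) and 14 (P14), with 3 libraries per tissue and stage. A second set came from SAN at E12.5 after tamoxifen at embryonic day 10.5, with 4 CreNeg libraries of genotype Hcn4-GFP;Isl1 fl/fl and 3 CrePos libraries that also carried CAG-Cre/Esr1, a ubiquitously driven tamoxifen-inducible Cre. CrePos replicate 2, an outlier by its own title, was kept out of the comparison, and its values are given apart. Nothing in the labels says how many animals gave each library, so the p-values cover only library-to-library spread, which may be technical.

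Values are given in CPM, here the deposited TMM-scaled read counts divided by the same constant in every library. Library totals were therefore not set equal. Every change is a difference of group means of log2(CPM + 1). The recovered depth was 5101711 to 17997497 reads in the 18 tissue and stage libraries and 45298052 to 88020474 in the 7 of the Isl1 set. By marker genes, all 7 of a SAN list (such as Hcn4, Tbx3 and Shox2) were higher in SAN than in RA over the 3 stages and all 7 of a right atrial list were lower. SAN E14.5 replicate 1 stood apart in Myl2, a ventricular muscle gene, at 829 CPM against at most 24.5 in the other 17 libraries. Macrophage markers rose from E14.5 to P14 for 11 of 12 genes in SAN and 3 of 12 in RA, fibroblast markers rose for 7 and 9 of 10, and erythroid markers fell for 3 and 6 of 9. In whole tissue, fewer dividing cells and less histone mRNA per cell cannot be told apart.

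The sequences of the genes show what the members share and why their reads are hard to separate. In the transcripts of GENCODE vM21 (build GRCm38), 41 of the 64 members hold the letters of the histone stem-loop (GG, 2 bases of any kind, CTTTT, any base, AG, 2 bases of any kind, CC) after the stop codon on the sense strand, 21 to 54 bases from it with a median of 31. Only 50 members have any bases annotated after the stop codon, as few as 1 in Hist1h2af. Members with few or no such bases therefore cannot be said to lack the stem-loop. Hist2h2be, with 2192 bases annotated after the stop codon, and Hist1h2bc, with 742, also had no match. The search does not find a stem-loop with other letters. Searched anywhere in a transcript, the same letters were found in 0.356% of 21924 protein-coding genes, the members included. The most frequent form, in 24 members, was that of Hist1h1e, Hist2h3c1 and Hist3h2ba, while H4 genes such as Hist1h4d carried a form with C and G in the middle of the stem. Capitals mark the stem-loop in members that the results turn on, with 5 bases on each side.
Hist1h1e: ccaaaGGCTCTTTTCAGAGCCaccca
Hist1h1c: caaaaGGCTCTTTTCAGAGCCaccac
Hist3h2a: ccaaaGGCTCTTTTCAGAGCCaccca
Hist3h2ba: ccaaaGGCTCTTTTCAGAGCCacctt
Hist2h3c1: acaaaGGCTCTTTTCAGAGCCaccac
Hist1h2bk: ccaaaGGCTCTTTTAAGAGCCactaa
Hist1h4d: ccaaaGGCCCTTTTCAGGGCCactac
Hist2h4: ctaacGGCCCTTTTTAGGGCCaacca
Of the 41, 22 also have more than 100 bases annotated beyond the stem-loop. Hist1h1c has 840 such bases and Hist3h2a 1643, while Hist1h1d and Hist1h1e, which fell in both tissues, have 4884 and 1153. Of 21 tested members with such an extension, 14 were lower at P14 than at E14.5 in SAN and 14 in RA. Of 19 tested members with at most 100 bases, 14 and 16 were lower. No test compared these groups. The annotated transcripts of Hist2h2be and Hist1h1a do not hold these letters.

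A promoter window of 300 bases (250 before and 50 after the annotated start, RefSeq, GRCm38.p6) was matched for 56 of the 64 members. The CCAAT box, searched as CCAAT on both strands, was present in 85.7% of them against 37.4% of the 32817 promoters in the table, and in every matched H1, H2A, H2B and H3 gene but 3 of 11 H4 genes. The octamer ATTTGCAT, the site of the factor that drives H2B transcription in S phase, was present in 6 of 14 H2A and 7 of 16 H2B promoters and in none of the H1, H3 and H4 promoters, against 1.74% of all promoters. TATAAA was present in 57.1% against 13.6%. Some H2A and H2B windows overlap on opposite strands, such as those of Hist1h2ah and Hist1h2bk and of Hist1h2ae and Hist1h2bg. A motif in the overlap counts for both genes, so such matches are not independent. The only TATAAA in the Hist1h2bk window lies on the opposite strand, in the part shared with Hist1h2ah. These are matches of letters in a window, and no binding was measured. A linker histone gene that passed the test from E14.5 to P14 in both tissues (Hist1h1e), one that passed in neither (Hist1h1c), an H2B gene with all 3 motifs and an H3 gene are shown 5′ to 3′ on the gene's strand, with CCAAT, ATTTGCAT and TATAAA of either strand in capitals. Hist1h1e lies on the minus strand at chr13:23622509-23622808, and the others lie on the plus strand, Hist1h1c at chr13:23738557-23738856, Hist1h2bk at chr13:22035571-22035870 and Hist1h3d at chr13:23575513-23575812.
Hist1h1e: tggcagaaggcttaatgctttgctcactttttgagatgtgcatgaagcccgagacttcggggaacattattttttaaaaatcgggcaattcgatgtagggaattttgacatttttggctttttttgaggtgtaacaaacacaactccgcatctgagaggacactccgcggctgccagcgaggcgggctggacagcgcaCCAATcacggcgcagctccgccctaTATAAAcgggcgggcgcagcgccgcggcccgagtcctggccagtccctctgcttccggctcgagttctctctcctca
Hist1h1c: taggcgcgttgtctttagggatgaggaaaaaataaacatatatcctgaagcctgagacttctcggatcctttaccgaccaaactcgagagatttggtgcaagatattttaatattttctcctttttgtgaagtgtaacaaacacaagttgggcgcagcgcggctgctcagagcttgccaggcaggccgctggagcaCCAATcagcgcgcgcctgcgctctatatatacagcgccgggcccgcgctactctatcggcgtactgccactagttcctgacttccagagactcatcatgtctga
Hist1h2bk: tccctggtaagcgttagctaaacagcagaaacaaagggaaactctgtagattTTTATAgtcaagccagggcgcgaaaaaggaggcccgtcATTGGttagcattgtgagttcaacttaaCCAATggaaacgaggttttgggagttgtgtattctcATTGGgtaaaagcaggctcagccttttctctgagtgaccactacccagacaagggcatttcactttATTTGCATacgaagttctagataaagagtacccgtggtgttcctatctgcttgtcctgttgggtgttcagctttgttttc
Hist1h3d: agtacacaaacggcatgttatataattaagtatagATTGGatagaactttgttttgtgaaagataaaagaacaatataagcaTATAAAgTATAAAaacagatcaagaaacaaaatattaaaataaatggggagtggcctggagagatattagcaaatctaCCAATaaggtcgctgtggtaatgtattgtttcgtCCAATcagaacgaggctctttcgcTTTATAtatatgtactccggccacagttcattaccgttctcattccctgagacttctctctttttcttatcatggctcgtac
Hist1h1e and Hist1h1c each have 1 CCAAT box, and TATAAA is found in the window of Hist1h1e but not in that of Hist1h1c.

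Paralogs share sequence, and this limits what a single row can say. Coding sequences were 87.9 to 100% identical between H2A genes, 82.8 to 100% between H2B genes, 93.6 to 99.3% between H3 genes and 85.4 to 100% between H4 genes, for pairs of equal length. Of the windows of 50 bases in a member's coding sequence, a median of 72.7% occurred in another member. In the deposited values, 33 members fell into 7 blocks, in which each row differed from at least 1 other row of the block by a median of at most 15% over the libraries. A link to 1 row was enough, so some pairs within a block differ by more. Those blocks hold 11 H2A genes, 5 and 3 H2B genes, 5 and 2 H4 genes, and 4 and 3 H3 genes. Hist1h2ao and Hist1h2ap had equal values in 20 of the 25 libraries. Rows within a block are therefore not independent measurements, and with each block taken as 1 row there are 38 distinct rows. How reads that match several of these genes were assigned is not given in the sources used here.

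**Figure D1:**
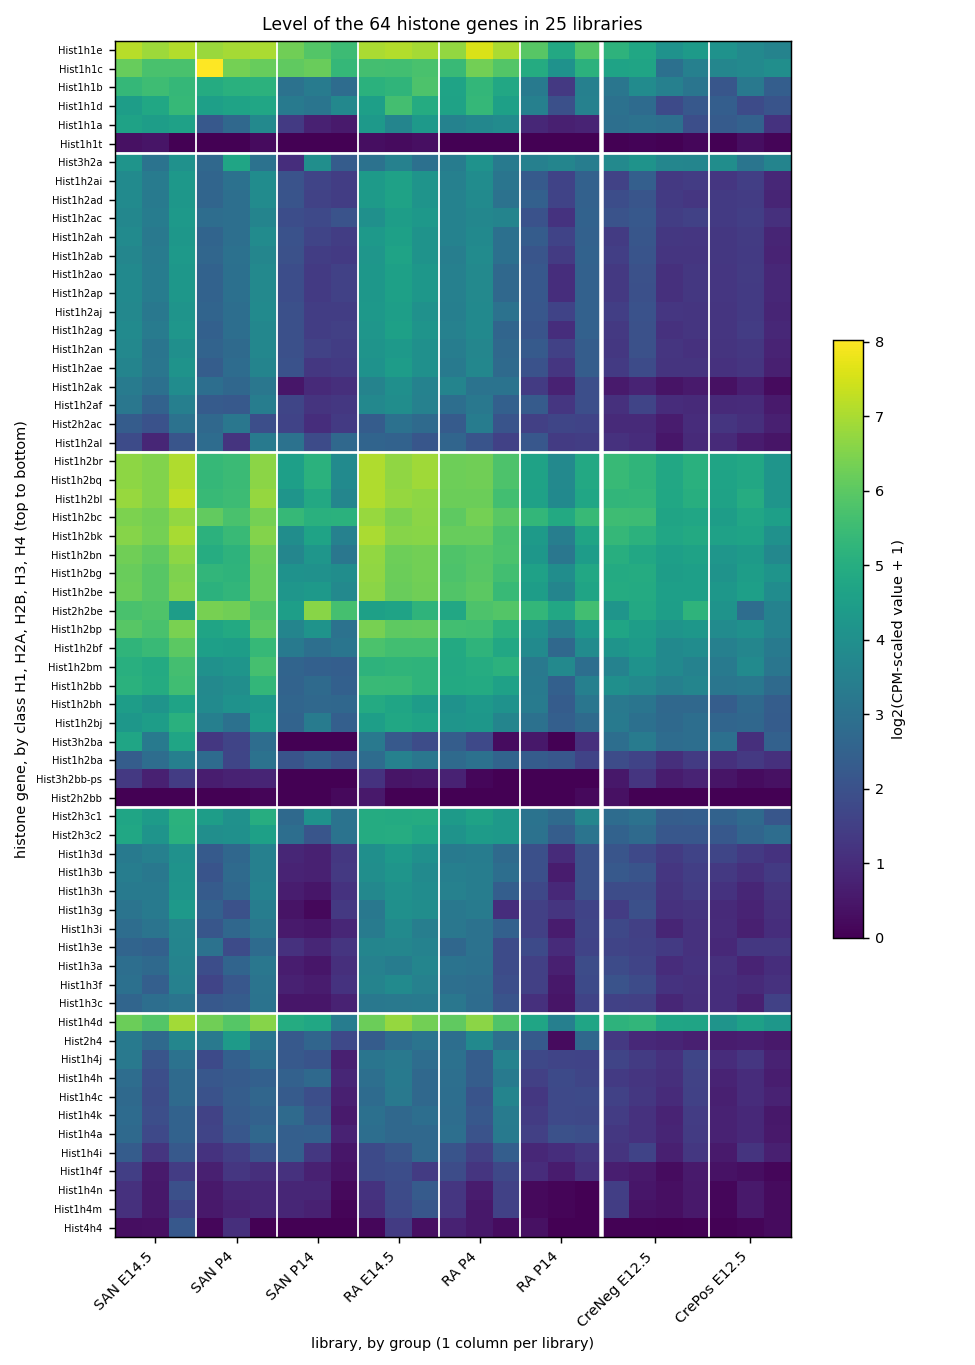
Each row is 1 of the 64 histone genes, grouped by class, and each column 1 of the 25 libraries, grouped by tissue and stage or by genotype; colour is log2(CPM + 1). SAN and RA libraries darken from E14.5 to P14 in most rows, Hist2h2be does not, and rows of one block look alike; the thick white line separates the Isl1 set, whose levels are not compared with the others.

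From E14.5 to P14 most histone genes fell in both tissues. In SAN 45 of the 62 tested members were lower at P14 and 0 were higher (limma with Benjamini-Hochberg adjustment over 17568 genes, adjusted p under 0.05), where 14.5% of all genes were lower and 9.74% higher. In RA 46 of 62 were lower and 0 higher, where 16.7% of all genes were lower and 5.99% higher. With the upper quartiles of the libraries set equal, the all-gene split in RA moved from 1052 higher and 2936 lower to 1555 and 1682 and the all-gene median from −0.37 to −0.11, while the count of members stayed at 46 lower. The median change of the members was −2.07 in SAN and −2.12 in RA, against −0.18 and −0.37 for all genes tested. A total of 44 members were lower in both tissues, Hist3h2bb-ps passed the test in SAN but not in RA, and Hist1h4m and Hist1h4n passed in RA but not in SAN. With blocks taken as 1 row, 24 of 36 tested rows were lower in SAN and 24 of 36 in RA, for every tested gene of the row.

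Hist2h2bb and Hist1h1t, with at most 0.451 CPM in any library, did not reach 1 CPM in 3 of the 18 libraries and were not tested. A further 4 members (Hist1h4m, Hist1h4n, Hist3h2bb-ps and Hist4h4) reached it only with the help of E14.5 libraries, where they were highest. All calls made in a single tissue (Hist3h2bb-ps in SAN, Hist1h4m and Hist1h4n in RA) are of these members. They are included in the counts above but give no support for a fall, since the filter favoured genes high at E14.5. The 44 members that were lower in both tissues all lie among the 58 that pass without the E14.5 libraries. Over all 64 members, every P14 library was below every E14.5 library for 48 in SAN, where this holds for 24.5% of genes tested, and for 58 in RA, where it holds for 33.1%. These counts take in Hist3h2bb-ps and Hist4h4 in SAN, and Hist1h4m, Hist1h4n, Hist3h2bb-ps and the untested Hist1h1t in RA. Those members give no support for a fall here either, and the shares cover tested genes only. No member had every P14 library above every E14.5 library in either tissue. Without SAN E14.5 replicate 1, the library with the high Myl2 level, 44 members were lower in SAN.

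**Figure D2:**
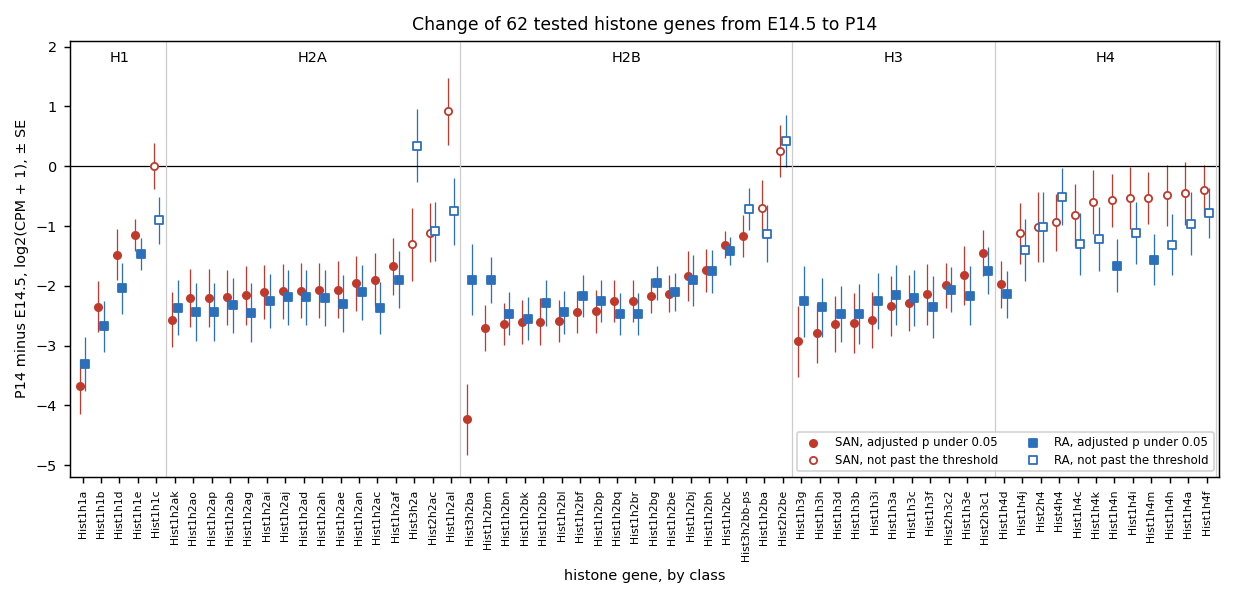
The change from E14.5 to P14, as the difference of mean log2(CPM + 1) with its standard error, is drawn for 62 tested histone genes in SAN (circles) and RA (squares), with filled symbols for adjusted p under 0.05. All 11 H3 genes lie below −1.4 in both tissues and the H4 genes other than Hist1h4d lie nearer to 0. Hist2h2be lies above 0 in both tissues, Hist1h2al lies highest in SAN, and Hist3h2a lies above 0 in RA.

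Among the linker histones, Hist1h1e, Hist1h1b, Hist1h1d and Hist1h1a fell in both tissues and Hist1h1c passed the test in neither. Hist1h1e stood at 143, 114 and 138 CPM in the 3 SAN libraries at E14.5 and at 76.6, 58.4 and 44.3 at P14. In RA it stood at 127, 138 and 123 CPM at E14.5 and at 60.9, 27.6 and 58.5 at P14. The stages did not overlap in either tissue, and the change was −1.15 ± 0.27 (SE, n = 3 per group, limma adjusted p = 0.0032) in SAN and −1.46 ± 0.27 (adjusted p = 0.00041) in RA. Hist1h1b fell from 39.8, 45.8 and 39.9 to 7.12, 9.20 and 6.08 CPM in SAN, a change of −2.35 ± 0.43 (limma adjusted p = 0.00030). Hist1h1a, named because of the size of its fall after its values were seen, went from 23.7, 21.3 and 23.1 to 1.56, 0.667 and 0.480 CPM in SAN. Its change was −3.68 ± 0.46 in SAN and −3.31 ± 0.46 in RA, the latter from 19.0, 11.6 and 19.5 to 0.876, 0.624 and 0.738 CPM. At P14 Hist1h1a rested on 5 to 19 reads per library.

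The levels of Hist1h1c at E14.5 and P14 overlapped in SAN. It stood at 71.0, 51.5 and 51.6 CPM in SAN at E14.5, at 260, 80.5 and 70.0 at P4 and at 65.9, 72.6 and 39.8 at P14. The SAN change was 0.01 ± 0.39 (limma adjusted p = 0.99). In RA it stood at 48.0, 47.0 and 51.3 CPM at E14.5, at 42.8, 79.3 and 58.3 at P4 and at 29.8, 15.95 and 34.85 at P14. Every RA library at P14 was below every one at E14.5, but the change of −0.91 ± 0.39 did not pass the test (adjusted p = 0.098). The difference between the tissues in this change was 0.91 ± 0.55 (limma adjusted p = 0.48) and did not pass either.

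Of the 16 H2A genes 13 fell in each tissue, the 11 of the linked block and, in rows of their own, Hist1h2af and Hist1h2ak. Hist1h2ai stood at 13.4, 9.12 and 18.3 CPM in SAN at E14.5 and at 3.11, 2.13 and 1.76 at P14. In RA the values were 19.96, 23.0 and 16.7 CPM and then 3.797, 2.05 and 4.58. The stages did not overlap in either tissue, with changes of −2.10 ± 0.45 in SAN (limma adjusted p = 0.0016) and −2.26 ± 0.45 in RA (adjusted p = 0.00087). Hist1h2ad, of the same block, changed by −2.08 ± 0.46 and −2.19 ± 0.46. The H2A genes that did not pass in either tissue were Hist3h2a, Hist2h2ac and Hist1h2al. In GENCODE vM21, 3 of the 64 members are annotated as pseudogenes. They are Hist1h2al, Hist1h2aj, which is among the 13 that fell, and the H2B row Hist3h2bb-ps. Hist1h2al had the highest SAN change of the tested members, at 0.92. It stood at 2.53, 0.801 and 3.31 CPM in SAN at E14.5 and at 7.12, 2.53 and 5.52 at P14, which overlap.

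H2B genes fell in 16 of 18 tested cases in SAN and 15 of 18 in RA. The SAN count includes the pseudogene Hist3h2bb-ps, which reached the filter only with the help of E14.5 libraries. Hist1h2bl stood at 108, 89.2 and 148 CPM in SAN at E14.5, at 41.6, 44.0 and 108 at P4 and at 17.3, 27.6 and 12.0 at P14. In RA it stood at 134, 108 and 99.7 CPM, then 74.6, 73.1 and 47.8, then 22.9, 13.1 and 26.1. Every P14 library was below every P4 and E14.5 library of its tissue, and the E14.5 to P14 change was −2.59 ± 0.36 (limma adjusted p = 1.5e-05) in SAN and −2.44 ± 0.36 (adjusted p = 3.3e-05) in RA. Hist1h2br and Hist1h2bq, of the same block, changed by −2.26 ± 0.35 in SAN and −2.47 ± 0.35 in RA each.

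All 11 H3 genes fell in both tissues, between −2.93 for Hist1h3g and −1.45 for Hist2h3c1 in SAN and between −2.48 for Hist1h3d and −1.75 for Hist2h3c1 in RA. Hist1h3d stood at 8.60, 10.2 and 15.8 CPM in SAN at E14.5 and at 0.819, 0.667 and 1.44 at P14. In RA it went from 15.1, 19.0 and 15.4 CPM to 2.92, 0.980 and 2.95. Neither tissue had overlapping stages, and the changes were −2.64 ± 0.47 (limma adjusted p = 0.00024) and −2.48 ± 0.47 (adjusted p = 0.00050). Hist2h3c1, in the Hist2 cluster, stood at 25.2, 20.2 and 34.1 CPM in SAN at E14.5 and at 5.73, 16.1 and 7.28 at P14, and changed by −1.45 ± 0.39 (adjusted p = 0.0081). Its neighbour Hist2h3c2 changed by −1.99 ± 0.38 in SAN and −2.06 ± 0.38 in RA.

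Of the 12 H4 genes 1 passed the test in SAN and 3 in RA, and no test compared the classes. Among the RA calls, Hist1h4m and Hist1h4n reached the filter only with the help of E14.5 libraries, so they give no support for a fall. Hist1h4d stood at 73.8, 57.5 and 120 CPM in SAN at E14.5 and at 29.7, 26.3 and 9.36 at P14, with no overlap and a change of −1.98 ± 0.39 (limma adjusted p = 0.00076). In RA it went from 74.4, 107 and 79.7 CPM to 25.1, 10.2 and 25.4, a change of −2.14 ± 0.39 (adjusted p = 0.00037). The other 11 H4 genes were low, and their changes ranged from −1.12 for Hist1h4j to −0.40 for Hist1h4f in SAN and from −1.66 for Hist1h4n to −0.51 for Hist4h4 in RA. Hist1h4j stood at 8.39, 3.33 and 7.22 CPM in SAN at E14.5 and at 3.68, 3.199 and 0.640 at P14, so that 1 P14 library lay above 1 E14.5 library. Its changes of −1.12 ± 0.51 (limma adjusted p = 0.12) and −1.40 ± 0.51 in RA (adjusted p = 0.053) did not pass. In RA it passed with a pseudocount of 4 (adjusted p = 0.040) and with a filter at 5 CPM (adjusted p = 0.047). On the log2(CPM + 1) scale the change of genes at a few CPM is understated. Hist2h4 went from 8.75, 5.67 and 11.7 to 3.76, 5.198 and 2.401 CPM in SAN, without overlap, and its change of −1.01 ± 0.58 did not pass (limma adjusted p = 0.22). In RA its change was −1.02 ± 0.58 and rested on RA P14 replicate 2 at 0.178 CPM, since it was −0.27 without that library.

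The genes known to give polyadenylated as well as stem-loop transcripts did not move as one. Of the 5 on that list, Hist1h2bc and Hist3h2ba were lower at P14 in both tissues, while Hist1h1c, Hist2h2be and Hist3h2a passed the test in neither. Hist2h2be stood at 51.3, 55.3 and 21.3 CPM in SAN at E14.5, at 82.6, 76.5 and 56.7 at P4 and at 21.5, 95.2 and 49.7 at P14. In RA it stood at 22.4, 24.5 and 36.5 CPM, then 26.9, 54.3 and 57.5, then 38.6, 27.1 and 47.7. The stages overlapped in both tissues, with changes of 0.25 ± 0.43 in SAN (limma adjusted p = 0.73) and 0.42 ± 0.43 in RA (adjusted p = 0.52). The SAN value turned to −0.26 without SAN P14 replicate 2.

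Hist1h2bc fell from 86.8, 79.2 and 106 to 40.4, 33.0 and 34.1 CPM in SAN, a change of −1.31 ± 0.23 (limma adjusted p = 0.00022), and by −1.41 ± 0.23 in RA (adjusted p = 0.00010). It was joined to its block through Hist1h2bk alone, from which it differed by a median of 14.7%, and its row is not near-equal to those of Hist1h2bl, Hist1h2bq and Hist1h2br. Hist3h2a stood at 16.8, 7.27 and 15.6 CPM in SAN at E14.5 and at 1.06, 14.5 and 4.00 at P14, and at 7.22, 10.5 and 6.77 and then 10.2, 11.6 and 9.60 CPM in RA. Stages overlapped in both tissues, and the changes were −1.31 ± 0.61 in SAN (limma adjusted p = 0.13) and 0.34 ± 0.61 in RA (adjusted p = 0.73). Without SAN P14 replicate 2, the SAN change was −2.07 and passed (adjusted p = 0.015).

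Hist3h2ba, an H2B gene of the Hist3 cluster with no window of 50 coding bases in common with another member, had the largest fall of the members in SAN. It stood at 25.2, 8.63 and 25.4 CPM in SAN at E14.5, at 1.47, 2.11 and 6.26 at P4, and was at 0 in all 3 P14 libraries. Its mean at P14 was therefore at least 66.8-fold lower than at E14.5, with P14 set at the value of 3 reads per library, and the fitted change had an adjusted p of 2.0e-05 (limma). In RA it went from 8.46, 3.68 and 2.67 to 0.438, 0 and 1.18 CPM, without overlap, a change of −1.90 ± 0.60 (adjusted p = 0.025). The RA call was lost without RA E14.5 replicate 1 (adjusted p = 0.13), RA P14 replicate 1 (0.062) or RA P14 replicate 2 (0.10), with a pseudocount of 4 (0.056) and in edgeR (0.0859). The difference between tissues in the change was −2.33 ± 0.84 (limma adjusted p = 0.16). Counting Hist3h2ba, Hist4h4 and Hist3h2bb-ps, each at 0 in all SAN P14 libraries, at their bounds gives a members' median of −2.09 in SAN.

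**Figure D3:**
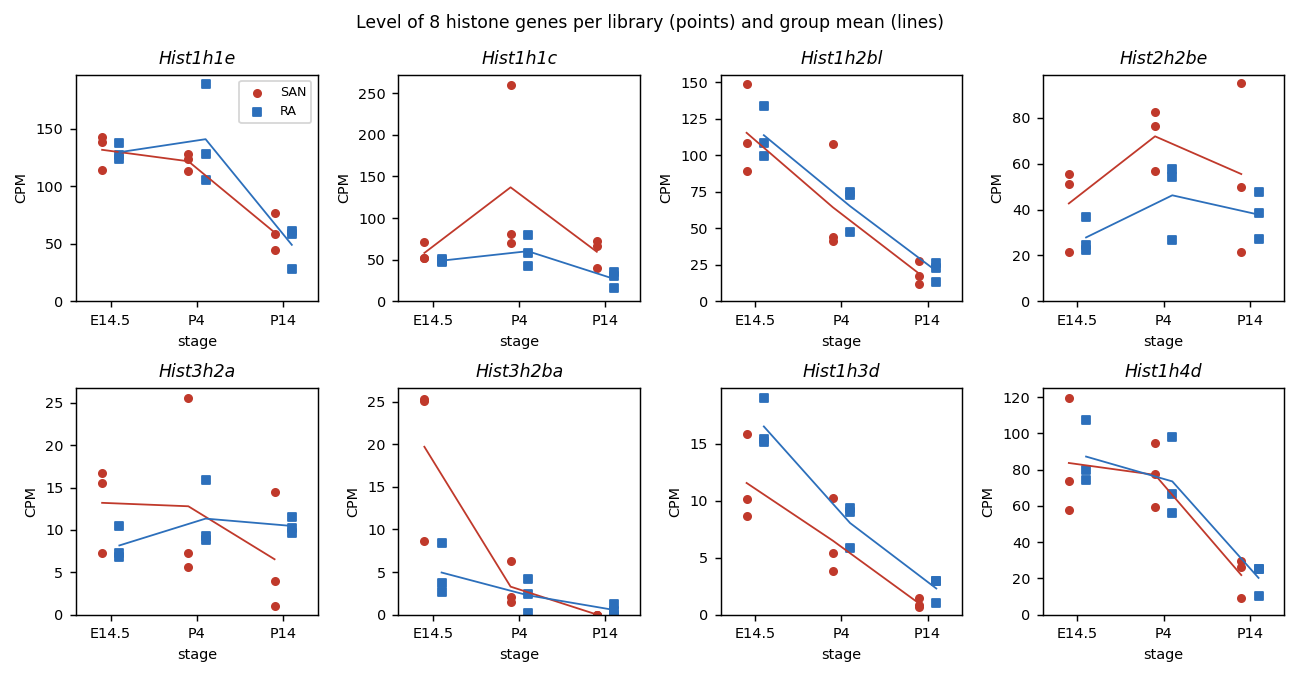
The level of 8 histone genes in CPM (linear axes from 0) is drawn for each SAN (circles) and RA (squares) library at E14.5, P4 and P14, with lines through the group means. Hist1h1e, Hist1h2bl, Hist1h3d and Hist1h4d are lowest at P14 in both tissues, Hist2h2be overlaps between stages, and Hist1h1c is above RA in SAN at P4 and P14 on the mean, with 1 SAN P4 library at 260 CPM.

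The members used mainly in the testis are the linker histone gene Hist1h1t and the H2B gene Hist1h2ba. Hist1h1t was at 0.184 to 0.267 CPM in RA at E14.5 and at up to 0.370 in SAN at E14.5, and at 0 in all 6 P14 libraries. Both stages lie at or below the value of 3 reads on the mean, so no fold is given. Hist1h2ba stood at 4.19, 6.35 and 10.1 CPM in SAN at E14.5 and at 3.27, 4.53 and 3.201 at P14, and its changes of −0.70 ± 0.48 in SAN and −1.13 ± 0.48 in RA did not pass (limma adjusted p = 0.32 and 0.094).

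More members passed the test between P4 and P14 than between E14.5 and P4. From P4 to P14, 25 of 62 members were lower in SAN and 0 higher (limma), where 2.91% of all genes were lower and 2.68% higher. In RA 24 were lower and 0 higher, where 5.42% were lower and 1.34% higher. With equal upper quartiles the all-gene split in RA moved from 236 higher and 952 lower to 425 and 299, and 16 members were lower. H2B genes made up 13 of the members called in each tissue. The SAN count was 41 in DESeq2 and 14 without SAN P4 replicate 3, and the RA count was 11 in edgeR, 11 without RA P14 replicate 2 and 15 without RA P4 replicate 2. From E14.5 to P4, 2 members were lower in SAN (4.39% of all genes were) and 0 in RA (3.56%). In RA edgeR and DESeq2 also called 0. At an unadjusted limma p under 0.05, in either direction, there were 14 members in SAN and 10 in RA. All genes at that threshold were not counted, so these counts have no background to be read against. The 2 called in SAN were Hist3h2ba, at −2.30 ± 0.60 (limma adjusted p = 0.019), and Hist1h1a, at −1.67 ± 0.46 (adjusted p = 0.027), which stood at 3.67, 5.51 and 12.6 CPM at P4. Neither passed in edgeR, and without SAN P4 replicate 3 the count was 12, while it was 0 or 1 without any one of SAN E14.5 replicates 1 to 3 or SAN P4 replicates 1 and 2. SAN P4 replicate 3 had the highest summed mitosis list of the SAN P4 libraries, at 1435 CPM against 519 and 608, and the part of this in the result was not tested.

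Summed over all members, histone reads were lower in every P14 library than in any E14.5 or P4 library of the same tissue. The sum was 1715, 1439 and 2188 CPM in the 3 SAN libraries at E14.5, 1201, 1080 and 1707 at P4 and 513, 620 and 384 at P14. In RA it was 2014, 1920 and 1838 CPM, then 1312, 1597 and 1167, then 543, 308 and 606. The P14 means were 28.4% of E14.5 in SAN and 25.2% in RA, and the P4 means 74.6% and 70.6%. Without the 5 genes of the polyadenylated list the P14 values were 22.4% and 21.5%, while for those 5 they were 70.2% and 59.7%. Members of one class had P14 sums of 48.4% of E14.5 for H1, 22.1% for H2A, 24.8% for H2B, 16.7% for H3 and 35.5% for H4 in SAN. In RA these were 33.8%, 21.8%, 24.8%, 18.2% and 26.7%.

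**Figure D4:**
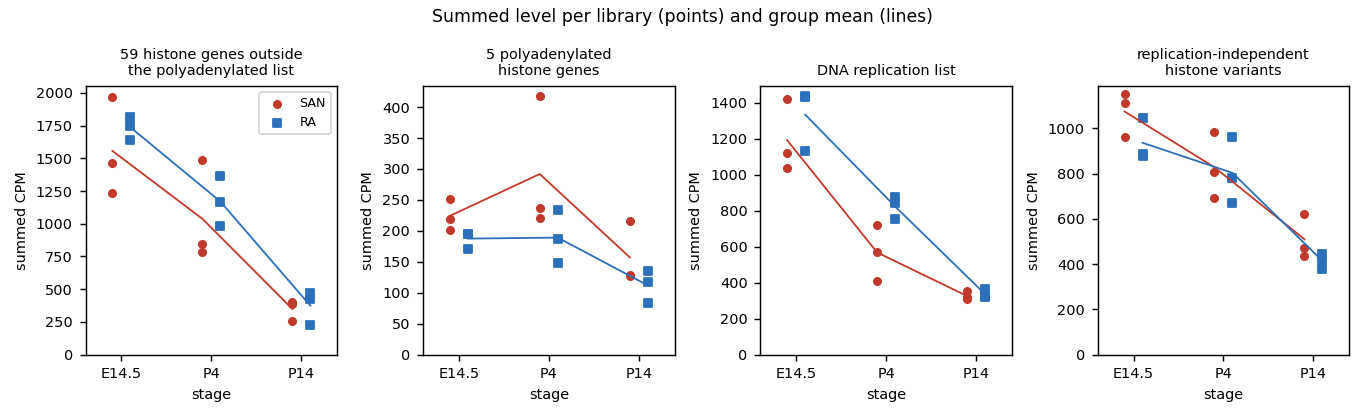
Summed CPM per library (points) and group means (lines) are drawn against stage for the 59 histone genes outside the polyadenylated list, the 5 on it, the DNA replication list and the replication-independent histone variants, each on its own linear axis from 0. The 59 genes and the DNA replication list are lowest at P14 in both tissues, and the 5 polyadenylated genes overlap between stages in SAN.

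Genes of DNA replication and of mitosis fell over the same interval. Of 24 tested genes of DNA replication, 20 were lower at P14 in SAN and 22 in RA, with medians of −1.82 and −2.19, including Mcm6, a subunit of the replicative helicase, at −2.36 ± 0.32 and −2.16 ± 0.32, and Rrm2, a subunit of ribonucleotide reductase, at −3.92 ± 0.50 and −2.80 ± 0.50. All 15 mitosis genes were lower in both, with medians of −3.68 and −3.08, including Mki67 at −3.04 ± 0.26 in SAN. The summed DNA replication list was 27.3% of E14.5 at P14 in SAN and 25.2% in RA, and the mitosis list 9.54% and 12.1%. The ratio of the summed histone level to the summed DNA replication level was 1.53 ± 0.50 (SD, n = 3) at E14.5, 2.39 ± 0.52 at P4 and 1.54 ± 0.27 at P14 in SAN. In RA it was 1.46 ± 0.21, 1.64 ± 0.16 and 1.47 ± 0.55, so E14.5 and P14 differed by less than the spread in both tissues. No test was run on these sums.

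The machinery that makes and handles histones changed in part. Of 20 tested genes for histone mRNA synthesis and processing, 7 were lower at P14 in SAN and 12 in RA, with medians of −0.71 and −0.87. Slbp, which binds the stem-loop, changed by −1.03 ± 0.35 in SAN (limma adjusted p = 0.036) and −0.999 ± 0.35 in RA (adjusted p = 0.046). Eri1, an exonuclease that trims the stem-loop end, changed by −1.04 ± 0.26 in SAN. Npat, the coactivator of histone gene transcription, changed by −0.80 ± 0.23 in RA (adjusted p = 0.014), and its −0.59 ± 0.23 in SAN did not pass (adjusted p = 0.063). Slbp and Npat were named after their values were seen. Of 17 histone chaperone genes 11 were lower in each tissue, including Nasp, a carrier of H3 and H4, at −2.39 ± 0.25 in SAN and −2.01 ± 0.25 in RA, and Hjurp, the chaperone of the centromeric H3 variant, at −2.36 ± 0.32 in SAN.

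Most replication-independent histone variants are polyadenylated and made through the cell cycle, while H2afx, placed on the same list, also gives a stem-loop transcript in S phase. Of 10 tested, 6 were lower at P14 in SAN and 7 in RA, with medians of −0.95 and −1.04. H2afz changed by −1.79 ± 0.26 in SAN and −1.80 ± 0.26 in RA, H2afx by −2.46 ± 0.47 and −2.17 ± 0.47, and H3f3a, which encodes the replacement histone H3.3, by −1.33 ± 0.30 and −1.26 ± 0.30. Their summed level at P14 was 47.4% of E14.5 in SAN and 44.2% in RA. These comparisons share all their libraries with those of the members, so agreement between them is not independent. The erythroid list summed to 2602 to 10560 CPM in SAN and 4260 to 35950 CPM in RA at E14.5 and to 394 to 2833 CPM at P14 in either tissue, and the part of this in the histone values was not tested.

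Between SAN and RA 1 of 62 members differed over the mean of the 3 stages. Hist1h1c was higher in SAN by 0.77 ± 0.22 (limma adjusted p = 0.025), where 6.11% of all genes were higher. By stage it was higher in SAN by 0.23 ± 0.39 at E14.5, 0.95 ± 0.39 at P4 and 1.14 ± 0.39 at P14, none of which passed (adjusted p = 0.87, 0.18 and 0.11). At P14 its SAN libraries all lay above its RA libraries, and at P4 the lowest SAN value of 70.0 CPM lay below the highest RA value of 79.3. Without SAN P4 replicate 1, at 260 CPM, the difference was 0.58 (adjusted p = 0.042), and it no longer passed without SAN E14.5 replicate 1 (adjusted p = 0.056), RA P4 replicate 1 (0.057), RA P14 replicate 2 (0.060) or SAN P14 replicate 2 (0.052). Hist2h2be was next by p, higher in SAN by 0.51 ± 0.25 (adjusted p = 0.23). Members were lower in SAN for 50 of 62 on the fitted value, with a median of −0.24 against −0.01 for all genes. None of these passed as lower, and the share of all genes with a lower fitted value was not counted. Rows within a block are not independent, so the 50 are not separate observations.

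At single stages no member passed (limma), where 5.33%, 5.96% and 4.55% of all genes differed at E14.5, P4 and P14. At an unadjusted limma p under 0.05 there was 1 member at E14.5, 1 at P4 and 2 at P14, and all genes at that threshold were not counted. In edgeR 0 passed at each stage, and in DESeq2 0 at E14.5, 1 at P4 and 1 at P14. The change from E14.5 to P14 differed between tissues for 0 members (limma and edgeR, with 1 in DESeq2), where 2.27% of all genes differed in limma. At an unadjusted limma p under 0.05 there were 2 members for this difference, again with all genes not counted. With equal upper quartiles the all-gene splits moved from 288 higher and 111 lower to 227 and 177 for this difference and from 564 and 235 to 427 and 341 at P14, with 0 members passing in either. The member called by DESeq2 was Hist3h2ba (adjusted p = 0.0068).

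In the E12.5 set the targeted gene was looked at first. Isl1, the transcription factor floxed in this line, stood at 67.4, 88.5, 47.8 and 83.2 CPM in the CreNeg libraries and at 71.7 and 53.9 in the libraries labelled CrePos replicates 1 and 3, within the CreNeg range. It stood at 2.85 CPM in CrePos replicate 2. The labels do not name the deleted exons, and values per gene do not show which exons were read. Whether the floxed gene was deleted in each of these libraries was not tested. Marker lists moved between the same libraries. SAN identity genes fell for 4 of 7, summing to 2009 to 2140 CPM in CreNeg and to 1000 and 829 CPM in CrePos replicates 1 and 3. Right atrial genes rose for 3 of 6, from a sum of 30.3 to 107 CPM to 294 and 425 CPM. Fibroblast genes fell for 4 of 10, from a sum of 1914 to 4317 CPM to 1427 and 874 CPM, and 1 of 4 ventricular genes rose. CrePos replicate 2 summed to 258 CPM for SAN identity genes, 440 CPM for right atrial genes and 3107 CPM for fibroblast genes. Its ventricular list summed to 1929 CPM, against 104 to 132 CPM in CreNeg and 180 and 121 CPM in CrePos replicates 1 and 3. The part of these lists in the histone values was not tested.

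No member passed the test between the 4 CreNeg libraries and the 2 labelled CrePos. Of 55 tested members 0 passed in limma, edgeR or DESeq2, where 2.00% of all genes differed in limma (99 higher and 193 lower, or 163 and 71 with upper quartiles set equal). At an unadjusted limma p under 0.05 there were 9 members, and all genes at that threshold were not counted. The members' median was −0.49 against −0.42 for all genes, and −0.22 against −0.03 with equal upper quartiles, a shift of the all-gene median by scaling alone. The summed level was 614, 622, 413 and 465 CPM in CreNeg, 359 and 292 in CrePos replicates 1 and 3 and 388 in CrePos replicate 2. In the deposited scaling all 3 libraries labelled CrePos lay below all 4 CreNeg libraries. As a share of each library's total reads, CrePos replicate 2 at 0.0544% lay above CreNeg replicate 3 at 0.0516%, and CrePos replicates 1 and 3 at 0.0481% and 0.0462% lay below every CreNeg library. The DNA replication list summed to 430 to 665 CPM in CreNeg and to 496 and 326 CPM in CrePos replicates 1 and 3, which overlap.

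Of single members Hist1h1b stood at 7.92, 13.8, 10.3 and 7.73 CPM in CreNeg and at 3.39 and 4.23 in CrePos replicates 1 and 3, and Hist1h4d at 35.2, 38.3, 25.6 and 24.6 and at 16.9 and 17.9. In CrePos replicates 1 and 3 both were below every CreNeg library, and neither passed (limma adjusted p = 0.17 and 0.19). Other members did the same, such as Hist1h1e at 35.3, 26.8, 16.1 and 19.6 CPM in CreNeg and at 15.9 and 11.1. How many members, or how many of all genes, lay below every CreNeg library was not counted. The all-gene median was itself negative in this scaling. CrePos replicate 2 stood at 8.56 CPM for Hist1h1b, inside the CreNeg range, and at 22.6 CPM for Hist1h4d, below it. Hist1h1c stood at 24.2, 24.6, 6.88 and 10.3 CPM in CreNeg and at 11.8 and 14.7, which overlap. CrePos replicate 2 stood below every CreNeg library in Hist2h2be, at 6.28 CPM against 17.1 to 36.4, in Hist3h2a, at 7.78 against 11.7 to 16.4, and in Hist3h2ba, at 1.11 against 6.22 to 9.03. With that library in the fit 0 of 55 members passed.

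**Figure D5:**
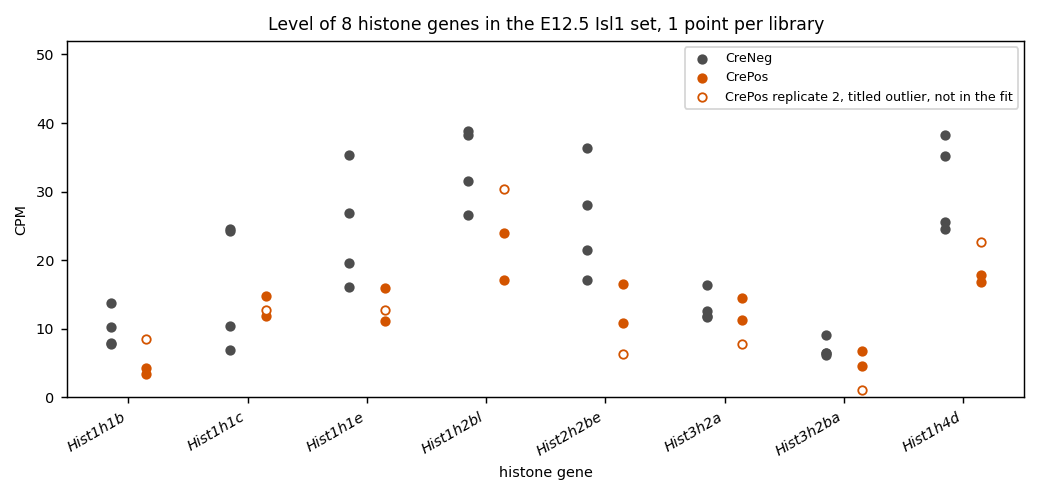
The level of 8 histone genes in CPM (linear axis from 0) is drawn for the 4 CreNeg libraries (grey), CrePos replicates 1 and 3 (filled orange) and CrePos replicate 2 (open orange), 1 point per library. CrePos points lie below the CreNeg points for Hist1h4d and overlap with them for Hist1h1c and Hist3h2a, and none of these differences passed the test.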

How the data were processed

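RNA from laser-captured tissue was reverse-transcribed with random hexamers and a poly-T primer and amplified, per the labels' protocols, so that transcripts without a poly(A) tail could be primed. The submitters' processing notes name TopHat2 2.0.6, edgeR and the build mm8. The authors deposited 1 table of signal per gene, read counts scaled by TMM factors. Whole reads were recovered from the steps between low values: within 0.1 read, at least 99.99% of values in each library were whole. Signal was divided by 24.3 to give a CPM scale. Annotation and sequences came from GENCODE vM21 and RefSeq GRCm38.p6, a build other than the authors', so no coordinates of reads were used.

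Genes at 1 CPM or more in 3 of 18 libraries (17568), or in 2 of 6 in the Isl1 set (14595), were tested with limma 3.58.1 (R 4.3.3, mean-variance trend) on log2(CPM + 1). The 18 libraries were fitted as 6 groups, apart from the Isl1 set. Calls were made at 0.05 after Benjamini-Hochberg adjustment across every gene in the fit. Alternatives were pseudocounts of 0.25 and 4, no filter or 5 CPM, equal library totals or upper quartiles, edgeR 4.0.16 and DESeq2 1.42.0 on recovered reads, a replicate block and leaving out each library. The fits were tested on simulated data.

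The members and gene lists were chosen with earlier results of these data known. Genes named with values were the 3 highest of each class, the polyadenylated and testis lists, members called between tissues or genotypes, and up to 4 genes with the smallest p of other lists, unless stated otherwise. Bounds for genes at 0 use 3 reads per library and cover counting error only. Whether reads were assigned by strand is not given in the sources used here, so reads of overlapping antisense genes cannot be told apart.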

Additional observations from a re-analysis of the deposited data

Results flagged for a closer look

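Among the 4 CreNeg libraries, 2 of the named members had 1 library far from the other 3. For Hist1h2ai, CreNeg replicate 2 stood at 4.41 CPM against 1.52 to 1.97, a gap of 0.844 of the whole range. For Hist3h2ba, CreNeg replicate 2 stood at 9.03 CPM against 6.22 to 6.51, a gap of 0.896 of the range. Both gaps exceed Dixon's 95% critical value for 4 samples, and chance alone gives such a gap in about 1 of 20 groups. The check was run on every member named by rule, so chance alone can give some such gaps among them.

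CrePos replicate 2, which the comparison did not use, held Hist1h1t at 0.224 CPM, above every CreNeg library (at most 0.106 CPM).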

How the results depend on the processing

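For the change from E14.5 to P14 the count of members lower stayed between 41 and 46 in SAN and 43 and 48 in RA under every scaling, filter, pseudocount, tool and left-out library tried (41 to 46 and 44 to 48 without single libraries). Counts that moved by over 1.5 times were those for SAN P4 minus E14.5, 2 in the report, 0 in edgeR with or without a filter, 1 with a pseudocount of 0.25 and 0 to 12 without single libraries; SAN P14 minus P4, 41 in DESeq2 and 14 to 30 without single libraries; and RA P14 minus P4, 11 in edgeR with or without a filter and 11 to 28 without single libraries. For SAN minus RA over 3 stages, 0 passed with the replicate block (Hist1h1c adjusted p = 0.055) and 0 or 1 without single libraries. Single members passed in SAN minus RA at E14.5 (1, pseudocount 4), at P4 (1, DESeq2), at P14 (1, DESeq2, and 0 or 1 without single libraries) and in the difference between tissues (1, DESeq2). Without single libraries the SAN change of Hist1h1c ranged from −0.16 to 0.27 and that of Hist2h2be from −0.26 to 0.79, both changing sign. In none of these cases was the cause tested. Same-numbered SAN and RA libraries did not deviate together (correlations from −0.09 to 0.12, over 0.1 in 2 of 9 pairs, best matched in 3 of 9), so replicate numbers were not taken as pairs; the replicate block left 45 and 46 members lower at P14. At the depth of P14 libraries, H4 genes and members at 0 are limited by counting.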
